A study of Homo sapiens with 21 samples.

Results

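Expression of 10 genes of the nuclear factor kappa B (NF-kB) inflammatory response was examined in RNA-seq libraries of 2 human carcinoma cell lines. The genes were chosen by symbol: CXCL1, CXCL2, CXCL3, CXCL8, CCL20, IL1A, IL1B, IL6, NFKBIA and TNFAIP3. They are 10 of the 20970 genes that have a row in at least 1 of 4 tables of normalised expression values. All 10 members had a row in the FADU knockdown and FADU overexpression tables, and 7 had one in the BFTC909 knockdown table and in the FADU mutant table.

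FADU is a head and neck squamous carcinoma line and BFTC909 an upper tract urothelial carcinoma line. The study asked which genes follow METTL4, an enzyme that methylates adenine in DNA, in hypoxic tumour cells. In each line a knockdown table held 3 groups of 2 libraries: scramble control (Scr-si) at 18% O2 (normoxia), Scr-si at 1% O2 (hypoxia), and METTL4 knockdown (METTL4-si) at 1% O2, each for 18 h. The methods describe knockdown by lentiviral short hairpin RNA followed by antibiotic selection, whereas the labels write "si". The overexpression table held 2 libraries each of normoxic FADU cells with a control vector, with METTL4 from a plasmid, and with the long non-coding RNA RP11-390F4.3 from a plasmid. The RP11-390F4.3 libraries were assigned by elimination, because their columns carry another name. The mutant table held 1 library of CRISPR control FADU cells and 1 from each of 2 single-cell clones whose METTL4 catalytic motif DPPW had been changed by prime editing, all in hypoxia. All groups of a table share its parental line, and the mutant clones come from 1 line.

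The 18 libraries of the 3 replicated tables held from 19.0 to 25.4 Mreads (1 Mread is 1e+06 reads) on genes. METTL4 itself, the targeted gene, overlapped between the FADU libraries labelled METTL4-si (24.2 and 27.1) and the hypoxic Scr-si libraries (26.6 and 25.3, log2 fold change -0.02 ± 0.09, SE, adjusted p = 0.90). In BFTC909 it was 14.4 and 12.2 against 19.0 and 15.6, a difference that did not pass the test (log2 fold change -0.36 ± 0.13, adjusted p = 0.072). METTL4 rose in the METTL4 overexpression libraries, to 157.5 and 138.6 from 35.4 and 32.7. Its RNA level in the mutant cells (control 12.5, clones 15.9 and 10.6) does not test the edit, and the level of RP11-390F4.3 itself was not analysed here. All 7 squamous markers had a row in FADU, and 1 of 7 urothelial markers had one in BFTC909, in which 5 of 6 fibroblast markers summed to 1019.5 and 1114 in normoxia, 4446.9 and 4652 in hypoxia, and 2481.4 and 2680.4 in METTL4-si. Replicate 1 of FADU METTL4-si carried the highest sum of the 6 breast luminal markers with a row among the FADU knockdown libraries (723.6, against 92.4 in replicate 2), and replicate 1 of FADU normoxia the next highest (184.6 against 79.5). Replicate 2 of BFTC909 METTL4-si held GATA3, from the breast luminal list, at 127.8 against at most 0.964 in the other BFTC909 libraries. It held EPCAM, from the squamous list, at 26.5 against at most 1.69. These 3 libraries are described below, by the names of these lists alone, as holding markers of other cell types. For the BFTC909 library the name rests on GATA3 and EPCAM, picked because they were high in it. In BFTC909 only 2 of 8 breast luminal and 2 of 7 squamous markers had a row. The lists do not show that urothelial cells lack GATA3 or EPCAM. Whether they held other cells was not tested. For these 3 libraries the counts of called genes and the correlations below are also given without them. The share of all genes called without them was not counted. Markers of leukocytes, which are known producers of these cytokines, had rows for 1 or 2 of 6 genes and summed to between 1.25 and 6.16. In FADU the single leukocyte marker with a row was CD14, and its part in the results was not tested. CD14 was 2.47 and 2.19 in hypoxia with Scr-si and 4.39 and 6.10 in METTL4-si, 1.91 and 2.28 with the control vector and 4.39 and 3.04 with RP11-390F4.3, and 2.06 in the CRISPR control against 1.25 and 1.63 in the mutant clones.

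NF-kB is a family of dimeric transcription factors held in the cytoplasm by inhibitor proteins. Signals from interleukin-1, tumour necrosis factor or microbial products activate the IKK kinase, which marks the inhibitors for destruction, and the freed dimers switch on genes of inflammation together with genes that end the response. CXCL1, CXCL2, CXCL3 and CXCL8 (interleukin-8) are chemokines that draw neutrophils through the receptors CXCR1 and CXCR2, and CCL20 draws cells that carry CCR6. IL1A and IL1B encode the interleukin-1 cytokines, of which the beta form is released after cleavage by caspase-1, and IL6 encodes a cytokine that signals through STAT3. NFKBIA encodes the inhibitor IkB-alpha and TNFAIP3 the ubiquitin-editing enzyme A20, and both are induced by NF-kB and restrain it. Squamous carcinoma cells are known to secrete several of these cytokines.

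The promoters show what the members share outside their expression. RefSeq promoters (GRCh38.p14, 250 bases before to 50 after the transcription start) were found for all 10 members and each matched 1 place in GRCh37. A 9-base run of the kappa B type, GGNNNTTCC on either strand, was present in the promoters of 8 members, and in 20.1% of the 35116 promoters in the RefSeq table. A stricter run that it contains, GGAATTTCC, was present in 5 members (CXCL1, CXCL2, CXCL3, CXCL8 and NFKBIA) and in 0.461% of all promoters. These letters were chosen after the sequences had been read, and a match is not a binding site. A stretch with a match upstream of the start is shown for each of these 8 members, the one nearest the start for NFKBIA, because they hold the letters that 8 members share and that were not found in this window of IL1A and IL1B. They are written 5′ to 3′ on the strand of the gene, with the matches in capitals and 20 bases on each side.
CXCL8, chr4:74606175-74606223 (+): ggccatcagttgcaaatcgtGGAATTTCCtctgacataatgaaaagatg
CXCL1, chr4:74735012-74735085 (+): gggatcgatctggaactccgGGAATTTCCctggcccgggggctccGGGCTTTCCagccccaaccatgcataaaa
CXCL3, chr4:74904431-74904504 (-): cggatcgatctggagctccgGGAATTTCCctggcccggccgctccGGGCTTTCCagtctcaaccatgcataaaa
CXCL2, chr4:74964937-74965009 (-): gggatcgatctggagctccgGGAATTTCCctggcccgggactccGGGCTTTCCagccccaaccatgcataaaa
NFKBIA, chr14:35874008-35874056 (-): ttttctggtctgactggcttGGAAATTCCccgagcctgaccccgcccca
TNFAIP3, chr6:138188309-138188369 (+): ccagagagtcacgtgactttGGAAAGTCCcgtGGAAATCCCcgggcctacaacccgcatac
IL6, chr7:22766727-22766775 (+): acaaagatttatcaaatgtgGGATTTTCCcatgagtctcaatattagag
CCL20, chr2:228678459-228678507 (+): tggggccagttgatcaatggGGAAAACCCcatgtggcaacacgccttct
The first match lay 91 bases before the start in CXCL8, 78 in CXCL1 and CXCL3, and 77 in CXCL2. NFKBIA held a further match, not shown, 242 bases before its start. CXCL1, CXCL2 and CXCL3 held a further match at 53 bases, and the CXCL1 and CXCL3 stretches were identical at 68 of 74 positions. These 3 genes are near-identical paralogs beside CXCL8 on chromosome 4, so reads of 1 of them could have been dropped or placed on another, and their separate levels are less certain than those of the other members.

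Levels are given as normalised CPM (counts scaled to library depth by the TMM method) and, between genes, per kilobase of exon. In normoxic FADU cells with Scr-si, IL1A was highest at 20.6 ± 0.42 per kilobase (SD, n = 2), followed by NFKBIA (17.9 ± 0.47 per kilobase) and IL1B (15.6 ± 0.57 per kilobase). CXCL1 (9.77 ± 0.01 per kilobase) and CXCL8 (9.54 ± 1.1 per kilobase) overlapped. TNFAIP3, at 4.66 ± 0.49 per kilobase, and CXCL2, at 2.37 ± 0.03 per kilobase, lay below them, and CXCL3, IL6 and CCL20 were between 0.122 and 0.322 per kilobase. In normoxic BFTC909 cells CXCL1 led at 47.1 ± 0.45 per kilobase, ahead of NFKBIA (16.1 ± 0.52) and CXCL2 (7.97 ± 0.50), and CXCL8, IL1A and IL1B had no row. FADU and BFTC909 were normalised in separate tables, so the lines are set side by side here without a test. The libraries of a group are separate samples by their labels, which do not say whether they came from separate cultures, so the p-values measure the spread between them, which may be technical.

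In FADU cells, hypoxia lowered 3 of the 8 members tested and raised none. A gene was called at a Benjamini-Hochberg adjusted p under 0.05 over all tested genes, by limma on log2(value + 1), and a change of at least 1.3-fold. By this rule 9.65% of all 16324 tested genes were lower and 9.73% were higher. IL1B fell from 45.7 and 48.2 in normoxia to 25.7 and 22.7 in hypoxia (log2 fold change -0.93 ± 0.15, SE, adjusted p = 0.0067). IL1A, which encodes the form of interleukin-1 active without cleavage, fell from 40.9 and 42.1 to 29.0 and 29.3 (-0.49 ± 0.14, adjusted p = 0.048). For both cytokines the hypoxic libraries lay below the normoxic ones. CXCL2 fell from 3.28 and 3.35 to 0.899 and 1.82 (-0.90 ± 0.20, adjusted p = 0.021), again without overlap.

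The other chemokines had lower values in hypoxia but did not pass the test. CXCL8 was 22.7 and 26.7 in normoxia and 16.6 and 22.3 in hypoxia (-0.34 ± 0.19, adjusted p = 0.22), and CXCL1 was 13.3 in both normoxic libraries and 10.4 and 11.2 in hypoxia (-0.28 ± 0.13, adjusted p = 0.16). NFKBIA was 61.9 and 59.6 against 44.5 and 52.9 (-0.32 ± 0.10, adjusted p = 0.054). TNFAIP3 was 27.8 and 32.3 against 25.2 and 27.9, with groups that overlapped (adjusted p = 0.35). IL6 was at or below 0.983 in all 4 libraries and passed the filter on low values only through the METTL4-si libraries. CXCL3 (0.582 and 0.849 against 0.270 and 0.274) and CCL20 (0.166 and 0.223 against 0 and 0.182) were below that filter, and the 0 stands for no read in a library of 22.5 Mreads, which allows up to 3 reads. The IL1A call was lost under 9 of 17 alternatives, among them edgeR on whole reads, no filter and median-centred libraries. The calls rest on single libraries: without either normoxic library 0 of the 8 were called, without hypoxia replicate 1 only IL1B and without hypoxia replicate 2 only CXCL2. Each of the 8 members kept a negative log2 fold change under all alternatives, among them leaving out the 3 libraries with markers of other cell types.

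In BFTC909 cells CXCL1, CXCL2 and IL6 fell in hypoxia and TNFAIP3 rose. Of 6 members tested, 3 fell and 1 rose, where 18.3% of the 14869 tested genes fell and 17.9% rose. CXCL1 fell from 63.7 and 64.6 to 9.20 and 9.75 (log2 fold change -2.64 ± 0.17, adjusted p = 4.6e-05) and CXCL2 from 11.6 and 10.7 to 2.46 and 1.77 (-1.97 ± 0.17, adjusted p = 0.00015). IL6 fell from 4.88 and 5.41 to 1.88 and 1.77 (-1.12 ± 0.14, adjusted p = 0.00088). CXCL3, which had too few values of at least 1 to be tested, was 0.895 and 1.17 in normoxia and 0.241 and 0.334 in hypoxia. TNFAIP3 instead rose from 21.4 and 22.8 to 38.1 and 36.7 (0.73 ± 0.09, adjusted p = 0.00067). NFKBIA was 55.7 and 53.2 against 62.0 and 63.0 (0.19 ± 0.08, adjusted p = 0.072) and CCL20 1.34 and 1.17 against 1.01 and 0.908 (-0.20 ± 0.14, adjusted p = 0.26). These 4 calls stood under each library left out. The summed fibroblast markers were higher in the hypoxic libraries, at 4446.9 and 4652 against 1019.5 and 1114, and their part in these results was not tested.

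The hypoxia changes of the lines were compared in a joint fit of both tables, as the change in FADU minus the change in BFTC909. All 5 members that could be tested in both lines differed, 3 with a higher and 2 with a lower value in FADU, where 12.8% of 13595 genes were higher and 11.0% lower. The log2 difference was 2.36 ± 0.23 for CXCL1 (adjusted p = 0.00016), 1.07 ± 0.27 for CXCL2 (adjusted p = 0.017) and 0.72 ± 0.20 for IL6 (adjusted p = 0.023), each with the less negative change in FADU. It was -0.90 ± 0.16 for TNFAIP3 (adjusted p = 0.0030) and -0.51 ± 0.13 for NFKBIA (adjusted p = 0.015). The differences of CXCL1 and TNFAIP3 passed under every alternative run. Those of CXCL2 and IL6 did not pass with pseudocount 0.1 or with edgeR on whole reads, which called 3 of the 5. Their calls and that of NFKBIA also depended on single libraries. IL6, at or below 0.983 in the FADU Scr-si libraries, passed the filter in FADU only through the METTL4-si libraries. Its difference was lost under 9 of 21 alternatives.

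**Figure D1:**
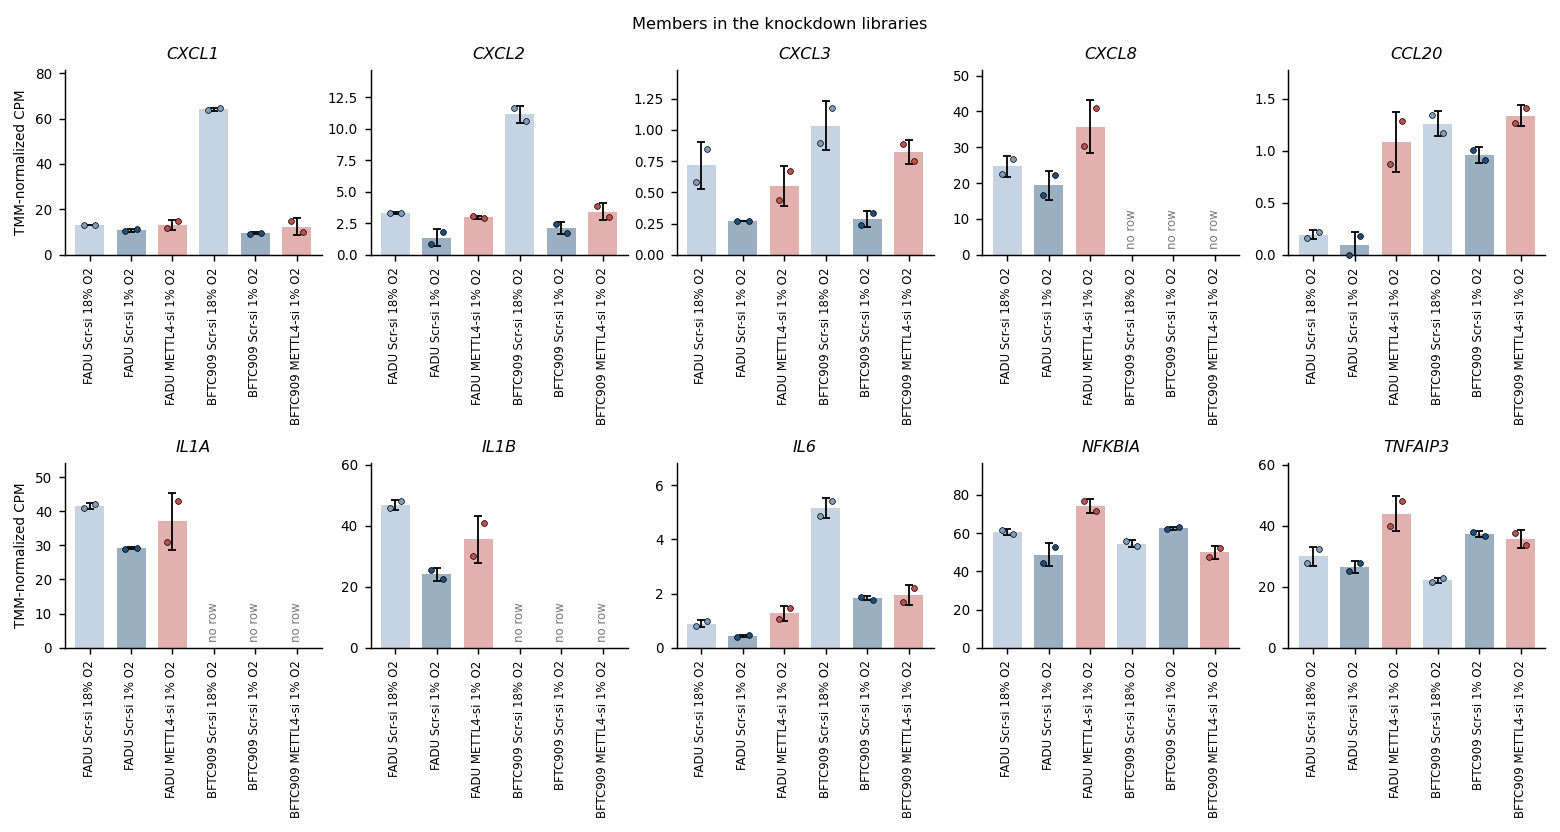
Normalised CPM (vertical axes, each from 0) of the 10 members in the knockdown libraries of FADU and BFTC909, with dots for single libraries, bars for the mean of 2 libraries and whiskers for their SD. CXCL1 of BFTC909 stands at 63.7 and 64.6 in normoxia and at most 15.0 elsewhere, whereas in FADU 5 members (CXCL8, CCL20, IL6, NFKBIA and TNFAIP3) have their highest mean in the METTL4-si libraries.

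In hypoxic FADU cells, 6 of the 8 members tested were higher in the libraries labelled METTL4-si than with Scr-si and none was lower. Of all genes tested, 12.5% were higher and 15.3% lower. CXCL8 rose from 16.6 and 22.3 to 30.5 and 40.9 (log2 fold change 0.85 ± 0.19, adjusted p = 0.014) and CXCL2 from 0.899 and 1.82 to 3.07 and 2.89 (0.78 ± 0.20, adjusted p = 0.025). TNFAIP3 rose from 25.2 and 27.9 to 39.9 and 48.1 (0.70 ± 0.12, adjusted p = 0.0062) and NFKBIA from 44.5 and 52.9 to 76.8 and 71.4 (0.60 ± 0.10, adjusted p = 0.0046). The METTL4-si values of both feedback genes also lay above their normoxic values of at most 32.3 and 61.9. IL1B rose from 25.7 and 22.7 to 30.1 and 41.0 (0.53 ± 0.15, adjusted p = 0.032), below its normoxic level. IL6 rose from 0.404 and 0.456, or 9 and 10 reads, to 1.08 and 1.47, or 27 and 33 reads (0.66 ± 0.15, adjusted p = 0.016), but it passed the filter only through these METTL4-si libraries. Without it the count was 5 of 7.

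CXCL1 was 10.4 and 11.2 with Scr-si and 11.8 and 14.8 in the METTL4-si libraries (0.27 ± 0.13, adjusted p = 0.15), and IL1A 29.0 and 29.3 against 31.1 and 43.0 (0.32 ± 0.14, adjusted p = 0.13). Of the members below the filter, CCL20 had 0 and 4 reads against 22 and 29, and CXCL3 6 and 6 against 11 and 15. For all 10 members the METTL4-si libraries lay above the hypoxic Scr-si libraries. The share of all genes that separated in this way was not counted, so the separation is not read as a trait of the members. The hypoxic Scr-si libraries also served as the comparison with normoxia, so the falls in hypoxia and the rises in METTL4-si share them. The IL1B call was lost under 8 of 17 alternatives, among them a fit to the compared groups alone and median-centred libraries, and the CXCL2 call under 5 of 16. Without hypoxia replicate 1, in which CXCL2, CXCL8, NFKBIA and TNFAIP3 were lowest, NFKBIA alone was called. Without METTL4-si replicate 1, which carries the breast luminal and fibroblast markers, each of the 8 kept a positive log2 fold change.

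In BFTC909 cells 0 of the 6 members tested were called between the METTL4-si and Scr-si libraries in hypoxia, whereas 13.2% of all genes were higher and 11.7% lower. CXCL2 was 2.46 and 1.77 with Scr-si and 3.89 and 2.97 in METTL4-si (0.51 ± 0.17, adjusted p = 0.051). NFKBIA was 62.0 and 63.0 against 47.6 and 52.5 (-0.32 ± 0.08, adjusted p = 0.018), a difference beyond its spread that stayed under 1.3-fold on the scale used. TNFAIP3 was 38.1 and 36.7 against 37.8 and 33.7 (-0.07 ± 0.09), and IL6 1.88 and 1.77 against 1.69 and 2.22 (0.06 ± 0.14). CXCL1 was 9.20 and 9.75 against 15.0 and 9.87, with replicate 1 alone well above the others. CCL20 was 1.01 and 0.908 against 1.27 and 1.41, and CXCL3, below the filter, had 5 and 7 reads against 19 and 15. At an unadjusted p under 0.05 with the same fold, 1 member passed, and edgeR on whole reads called 0. Without METTL4-si replicate 2, the library with GATA3 and EPCAM, 3 were called (CXCL1, CXCL2 and NFKBIA).

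The METTL4-si changes differed between the lines for 3 of 5 members, all higher in FADU, where 9.12% of genes were higher and 14.4% lower. The log2 difference of FADU minus BFTC909 was 0.92 ± 0.13 for NFKBIA (adjusted p = 0.00084), 0.77 ± 0.16 for TNFAIP3 (adjusted p = 0.0066) and 0.60 ± 0.20 for IL6 (adjusted p = 0.046). The differences of NFKBIA and TNFAIP3 passed under all 22 alternatives, and that of IL6 was lost under 11 of 21. IL6 passed the filter in FADU only through the METTL4-si libraries, and without it 2 of 4 members differed. Without the 3 libraries with markers of other cell types 3 members were called. CXCL1 (-0.06 ± 0.23) and CXCL2 (0.27 ± 0.27) showed no difference beyond the error.

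**Figure D2:**
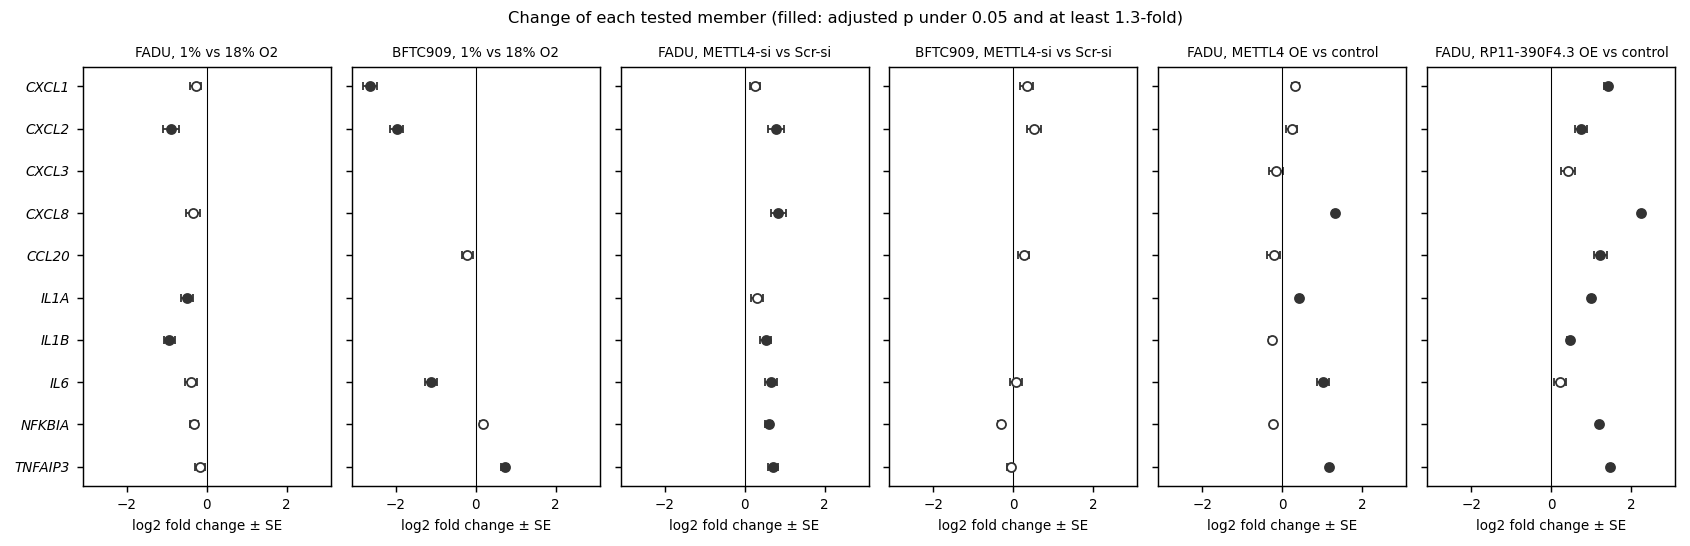
Log2 fold change of log2(value + 1) of each tested member (horizontal axis, whiskers for the SE) in 6 comparisons, with filled dots for members at an adjusted p under 0.05 and at least 1.3-fold. In the RP11-390F4.3 panel 8 of 10 members are filled and to the right of 0, whereas the BFTC909 METTL4-si panel has no filled dot.

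METTL4 overexpression in normoxic FADU cells raised 4 of 10 members and lowered none, where 8.00% of all 15644 tested genes were higher and 10.5% lower. CXCL8 rose from 26.6 and 26.9 to 68.5 and 67.2, a 2.48-fold change (log2 fold change 1.31 ± 0.05, adjusted p = 2.4e-10). TNFAIP3 rose from 28.9 and 32.4 to 70.6 and 70.1 (1.17 ± 0.06, adjusted p = 3.5e-09) and IL6 from 0.811 and 0.931 to 2.98 and 2.58 (1.01 ± 0.15, adjusted p = 0.00015). IL1A rose from 45.8 and 41.1 to 59.5 and 57.7 (0.42 ± 0.06, adjusted p = 6.5e-05), and this call was lost without control replicate 2. For each of these genes the libraries of the groups did not overlap.

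The remaining members were not called. NFKBIA was 57.3 and 57.7 in control cells and 49.6 and 47.8 with METTL4 (-0.24 ± 0.05, adjusted p = 0.0017), and IL1B 50.9 and 57.6 against 46.0 and 43.3 (-0.27 ± 0.07, adjusted p = 0.0050). Both lay below the control without reaching 1.3-fold. CXCL1 was 15.5 and 14.1 against 19.1 and 18.4 (0.33 ± 0.08, adjusted p = 0.0040), just under the fold required, and CXCL2 2.81 and 2.79 against 3.93 and 3.08 (0.24 ± 0.14, adjusted p = 0.19). CXCL3 and CCL20 entered the test only through the RP11-390F4.3 libraries, with at most 22 reads in any control or METTL4 library.

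RP11-390F4.3 overexpression raised 8 of the 10 members and lowered none, where 16.5% of all genes were higher and 12.5% lower. CXCL8 rose from 26.6 and 26.9 to 130.1 and 129.9, a 4.72-fold change (log2 fold change 2.24 ± 0.05, adjusted p = 8.6e-13). CXCL1 rose from 15.5 and 14.1 to 42.4 and 39.2 (1.40 ± 0.08, adjusted p = 5.6e-09) and CXCL2 from 2.81 and 2.79 to 4.99 and 5.74 (0.74 ± 0.14, adjusted p = 0.00053). CCL20 rose from 0.286 and 0.372, or 6 and 8 reads, to 1.81 and 2.44, or 45 and 57 reads (1.23 ± 0.16, adjusted p = 3.4e-05), and it passed the filter only through these libraries. All RP11-390F4.3 libraries lay above all control libraries for each of the 10 members. The share of all genes that did so was not counted, so this too is not read as a trait of the members.

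Both feedback genes rose as well, TNFAIP3 from 28.9 and 32.4 to 87.0 and 86.4 (1.47 ± 0.06, adjusted p = 2.3e-10) and NFKBIA from 57.3 and 57.7 to 131.1 and 132.1 (1.18 ± 0.05, adjusted p = 3.4e-10). IL1A rose from 45.8 and 41.1 to 88.2 and 87.2 (1.00 ± 0.06, adjusted p = 1.2e-08) and IL1B from 50.9 and 57.6 to 72.1 and 77.3 (0.46 ± 0.07, adjusted p = 6.4e-05). The call of IL1B was lost without control replicate 1 and with median-centred libraries. IL6 was 0.811 and 0.931 against 1.01 and 1.37 (0.22 ± 0.15, adjusted p = 0.24) and CXCL3 0.620 and 1.02 against 1.65 and 1.20 (0.42 ± 0.17, adjusted p = 0.053). Leaving out CCL20 and CXCL3, which passed the filter only through these libraries, 7 of 8 members were called.

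Set directly against METTL4 overexpression, RP11-390F4.3 overexpression gave higher values for 8 members and a lower value for 1, where 18.4% of genes were higher and 13.3% lower. CCL20 (1.44 ± 0.16) and CXCL3 (0.58 ± 0.17) entered this test only through the RP11-390F4.3 libraries, and without them 6 of 8 were higher and 1 lower. NFKBIA was at 131.1 and 132.1 against 49.6 and 47.8 (log2 fold change 1.42 ± 0.05, adjusted p = 7.6e-11). CXCL1 (1.08 ± 0.08), CXCL8 (0.93 ± 0.05), IL1B (0.73 ± 0.07), IL1A (0.57 ± 0.06) and CXCL2 (0.50 ± 0.14) were also higher with RP11-390F4.3. IL6 was the member with the opposite sign, at 1.01 and 1.37 with RP11-390F4.3 and 2.98 and 2.58 with METTL4 (-0.79 ± 0.15, adjusted p = 0.00063). TNFAIP3 was 87.0 and 86.4 against 70.6 and 70.1, a log2 difference of 0.30 ± 0.06 that stayed under 1.3-fold.

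**Figure D3:**
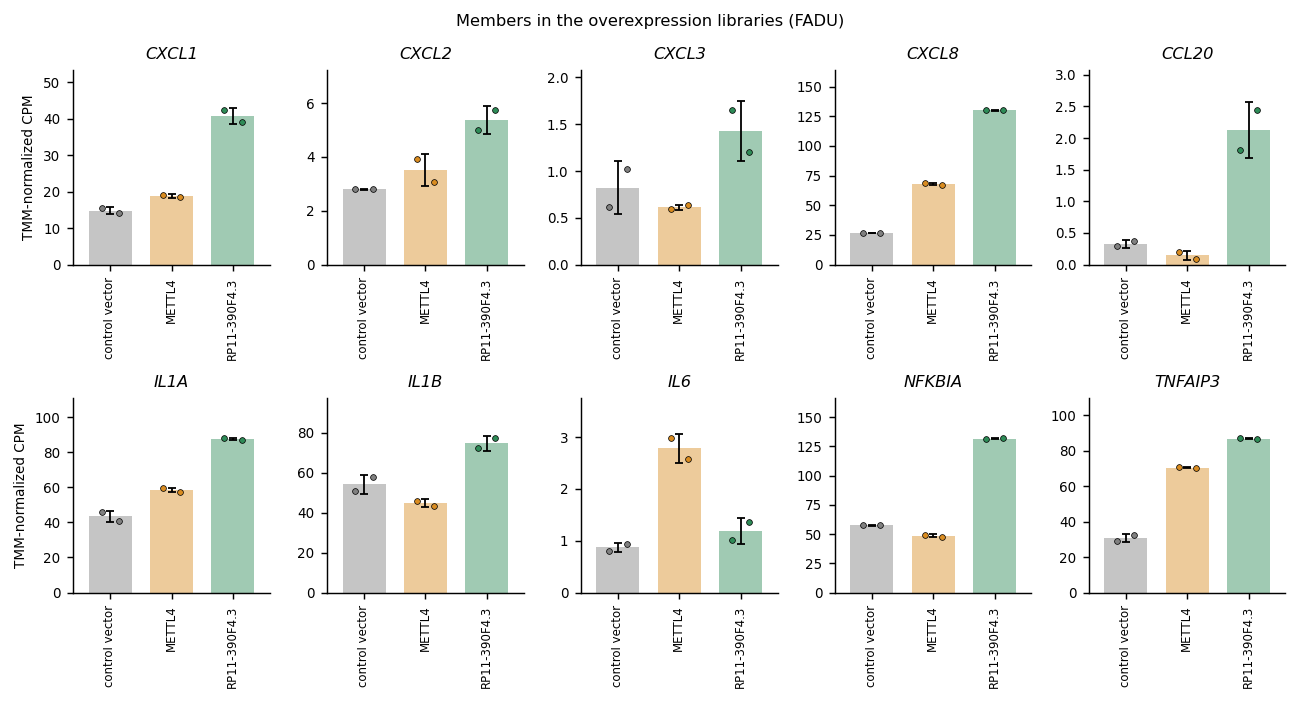
Normalised CPM (vertical axes, each from 0) of the 10 members in FADU cells with control vector, METTL4 or RP11-390F4.3, with dots for single libraries, bars for the mean of 2 libraries and whiskers for their SD. CXCL8 climbs from 26.6 and 26.9 through 68.5 and 67.2 to 130.1 and 129.9, whereas NFKBIA is highest with RP11-390F4.3 and lowest with METTL4, and IL6 is highest with METTL4.

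Other genes of the NF-kB response were followed in 8 lists. Unlike the members, these genes were not checked for passing the filter on low values through 1 group alone. Their counts stand beside the shares of all genes given above, 16.5% higher and 12.5% lower with RP11-390F4.3 and 8.00% higher and 10.5% lower with METTL4. In the list of further inhibitors and feedback genes, RP11-390F4.3 overexpression raised 11 of 15 tested genes and lowered 1, with a median log2 fold change of 0.50 where the median of all genes was 0.01. IER3, an early response gene that protects from cell death, rose most (1.89 ± 0.06). TNFAIP8 (1.60 ± 0.06), the RNase gene ZC3H12A (1.3 ± 0.11), the A20 partner TNIP1 (1.24 ± 0.07) and NFKBIZ, an atypical member of the IkB family (1.22 ± 0.06), followed. BIRC3 (0.82), NFKBIE (0.67), BIRC2 (0.50), TRAF1 (0.48), the deubiquitinase CYLD (0.46) and TNIP2 (0.45) rose less, and TNFAIP2 was the gene that fell (-0.49 ± 0.05). METTL4 overexpression raised 2 of the 15, IER3 (1.07 ± 0.06) and TNIP1 (0.48 ± 0.07), and lowered 4: TNFAIP2 (-1.55 ± 0.05), BCL3 (-0.77 ± 0.10), NFKBIZ (-0.65 ± 0.06) and BIRC3 (-0.56 ± 0.07).

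Among other NF-kB targets, 7 of 12 rose and 2 fell with RP11-390F4.3, led by PTGS2, which encodes the prostaglandin synthase COX-2 (2.98 ± 0.08), with IRF1 falling most (-0.39 ± 0.06). METTL4 raised 4 and lowered 2, with PTGS2 at 2.59 ± 0.08 and TNFSF10, the death ligand TRAIL, at -2.31 ± 0.11. Of 26 other chemokines and cytokines listed, 9 were tested. RP11-390F4.3 raised 5 of these 9: IL24 (1.72 ± 0.11), IL11 (1.23 ± 0.14), CCL28 (1.14 ± 0.16), LIF (1.10 ± 0.08) and TSLP (0.90 ± 0.17). METTL4 raised IL24 (3.24 ± 0.11), IL11 (1.47 ± 0.14) and LIF (0.77 ± 0.08) and lowered CSF1 (-1.79 ± 0.12), IL15 (-1.11 ± 0.15), IL18 (-0.65 ± 0.06) and CXCL16 (-0.65 ± 0.11). Of 11 genes for mRNA decay factors and MAP kinase phosphatases, 9 rose with RP11-390F4.3 and 5 with METTL4, led in both by the phosphatase gene DUSP6 (3.44 ± 0.11 and 1.86 ± 0.11), and none fell. ZC3H12A belongs to this list and to that of the inhibitors.

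Of 8 NF-kB subunits and IKK genes, 3 rose and 1 fell with RP11-390F4.3, led by RELB (0.71 ± 0.13) and MAP3K14 (-0.43 ± 0.07), and 4 rose and 2 fell with METTL4, led by MAP3K14 (0.61 ± 0.07) and REL (-0.45 ± 0.06). Of 22 receptors, antagonists and adaptors, 5 rose and 2 fell with RP11-390F4.3, with IRAK2 at 1.39 ± 0.14 and CXCR2 at -0.84 ± 0.14, and 3 rose and 8 fell with METTL4, with the decoy receptor IL1R2 at 2.29 ± 0.16 and TLR3 at -0.99 ± 0.11. In interleukin-6 signalling 4 of 8 rose with RP11-390F4.3, led by the inhibitor SOCS3 (2.27 ± 0.08), and with METTL4 SOCS1 rose (0.91 ± 0.16) while 2 fell, CEBPB most (-0.82 ± 0.08). In interleukin-1 processing 3 of 8 rose with RP11-390F4.3, GSDME most (1.03 ± 0.08), and with METTL4 GSDME rose (0.75 ± 0.08) and 3 fell, CASP1, the caspase-1 gene, most (-1.75 ± 0.09).

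**Figure D4:**
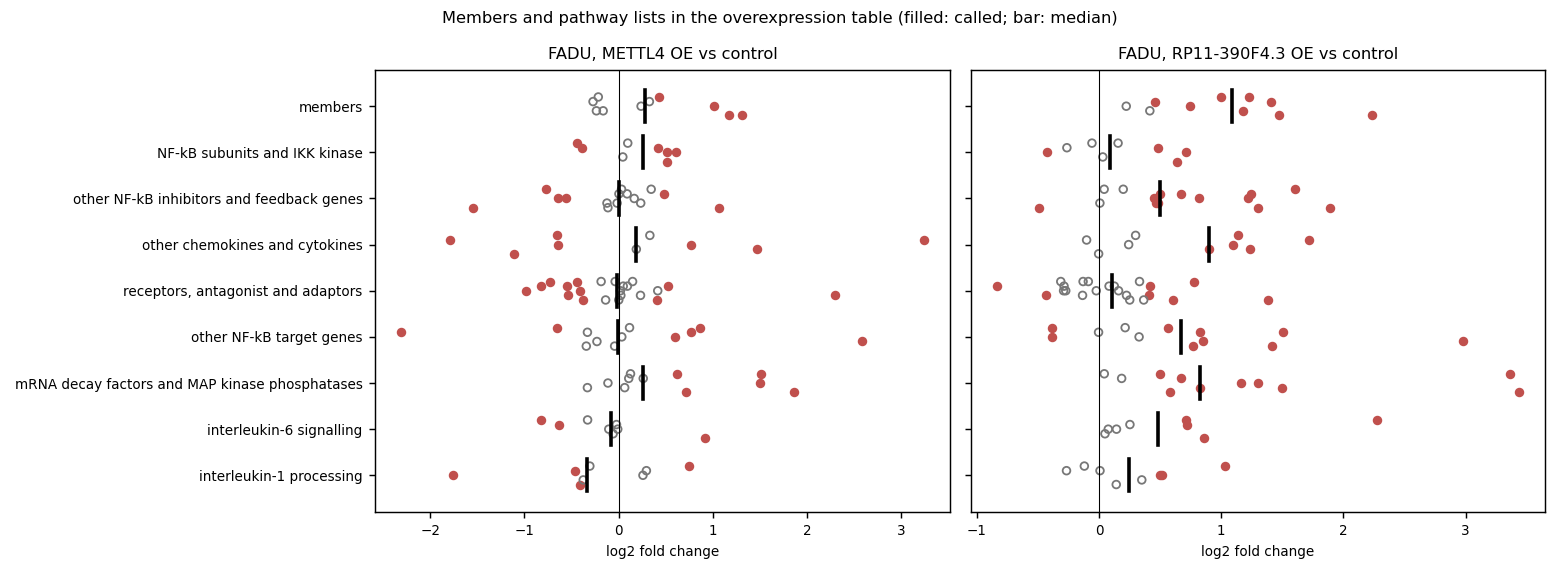
Log2 fold change (horizontal axis) of single genes of the members and of 8 further lists with METTL4 and with RP11-390F4.3 overexpression, with filled dots for called genes, open dots for others and a bar at each median. The median of the members is 0.28 with METTL4 and 1.09 with RP11-390F4.3.

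Set against METTL4 overexpression, RP11-390F4.3 overexpression gave higher values for 11 of 15 inhibitors and feedback genes and lower values for none, where 18.4% of all genes were higher. NFKBIZ (1.86 ± 0.06), TNFAIP8 (1.57 ± 0.06) and ZC3H12A (1.41 ± 0.11) led them. Of 9 cytokines 6 were higher, CSF1 most (1.69 ± 0.12), and IL24 was lower (-1.52 ± 0.11). The strongest differences of the remaining lists were SOCS3 (2.6 ± 0.08), TNFSF10 (2.3 ± 0.11), CASP1 (2.26 ± 0.09), DUSP1 (1.85 ± 0.09), ACKR3 (1.22 ± 0.11) and REL (0.60 ± 0.06) among the higher, and IL1R2 (-2.07 ± 0.16), MAP3K14 (-1.04 ± 0.07) and PLAU (-0.42 ± 0.06) among the lower.

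In the FADU knockdown table the list of further inhibitors and feedback genes moved both ways in both comparisons, whereas some other lists moved 1 way in 1 of them. Of 11 decay factors and phosphatases, 0 rose and 6 fell in hypoxia, and 4 were higher and 3 lower in METTL4-si. Of 12 other NF-kB targets, 4 rose and 4 fell in hypoxia, and 5 were higher and 0 lower in METTL4-si. Of all genes, 9.73% rose and 9.65% fell in hypoxia, and 12.5% were higher and 15.3% lower in METTL4-si. In FADU hypoxia the further inhibitors and feedback genes split into 3 that rose, TNIP1 (1.27 ± 0.08), TNFAIP8 (1.14 ± 0.11) and CYLD (0.60 ± 0.10), and 5 that fell, BCL3 (-1.11 ± 0.12), IER3 (-0.97 ± 0.16), TNFAIP2 (-0.94 ± 0.07), NFKBIB (-0.86 ± 0.15) and ZC3H12A (-0.58 ± 0.15), of 15 tested. In the METTL4-si libraries 6 were higher and 3 lower, with BIRC3 (1.00 ± 0.15), IER3 (1.04 ± 0.16), TRAF1 (0.89 ± 0.13), NFKBIZ (0.67 ± 0.07), ZC3H12A (0.65 ± 0.15) and TNFAIP2 (0.50 ± 0.07) higher and TNIP1 (-1.31 ± 0.08), TNFAIP8 (-0.98 ± 0.11) and CYLD (-0.56 ± 0.10) lower. LIF, a cytokine of the interleukin-6 family, fell in FADU hypoxia (-1.39 ± 0.10) and was higher in METTL4-si (1.89 ± 0.10). CCL28 (1.23 ± 0.36) and TSLP (0.87 ± 0.17) rose in hypoxia, and CXCL16 (0.63 ± 0.11) and IL18 (0.38 ± 0.12) were higher in METTL4-si. The p65 subunit gene RELA was 151.9 and 154.5 in hypoxia with Scr-si and 94.1 and 90.0 in METTL4-si (-0.73 ± 0.07, adjusted p = 0.00068), and no other of the 8 subunit and IKK genes was called. In the remaining lists hypoxia raised most the scavenger receptor gene ACKR3 (1.45 ± 0.22), EFNA1 (0.99 ± 0.17) and CASP1 (0.81 ± 0.13) and lowered most the interleukin-1 receptor antagonist gene IL1RN (-1.55 ± 0.13), TNC (-0.98 ± 0.14) and CEBPB (-0.85 ± 0.16). In METTL4-si the most raised were TLR2 (1.33 ± 0.17), TNC (1.25 ± 0.14), SOCS1 (0.77 ± 0.18) and NLRP1 (0.49 ± 0.09), and the most lowered IL1R2 (-1.09 ± 0.16), CAPN2 (-0.68 ± 0.08), DUSP1 (-0.63 ± 0.13) and STAT3 (-0.60 ± 0.06). Without the 3 libraries with markers of other cell types, 33 of the 34 list genes called in FADU hypoxia and all 39 called in METTL4-si were still called in the same direction.

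Of all genes in BFTC909, 17.9% rose and 18.3% fell in hypoxia, and 13.2% were higher and 11.7% lower in METTL4-si. Of 10 decay factors and phosphatases, 0 rose and 6 fell in hypoxia, and 4 were higher and 1 lower in METTL4-si. Of 8 interleukin-1 processing genes, 2 rose and 1 fell in hypoxia, and 6 were higher and 0 lower in METTL4-si. In BFTC909 hypoxia 3 of 16 further inhibitors and feedback genes rose, BCL3 (1.32 ± 0.16), TRAF1 (0.46 ± 0.09) and CYLD (0.45 ± 0.12), and 5 fell, TNIP3 (-1.43 ± 0.17), BIRC3 (-1.08 ± 0.18), NFKBIE (-1.08 ± 0.12), IER3 (-1.01 ± 0.15) and NFKBIB (-0.80 ± 0.09). The chemokines CCL28 (3.0 ± 0.15) and CXCL12 (1.34 ± 0.15) rose while IL11 (-1.60 ± 0.15) and IL18 (-1.03 ± 0.14) fell. ICAM1, the adhesion molecule that leukocytes bind, rose (1.52 ± 0.08), as did the chemokine scavenger receptor gene ACKR3 (3.06 ± 0.10), and SOCS3 fell (-1.56 ± 0.09). PLAU (-1.47 ± 0.07), IRAK2 (-1.10 ± 0.13), CHUK (-0.66 ± 0.13) and CAPN2 (-0.42 ± 0.09) fell most in their lists, and GSDME (1.40 ± 0.07) rose most in its list. In the BFTC909 METTL4-si libraries 5 inhibitors and feedback genes were higher, led by IER3 (1.17 ± 0.15), and 3 lower, BIRC2 (-0.57 ± 0.12), TNIP1 (-0.50 ± 0.06) and NFKBIB (-0.45 ± 0.09). The other 4 that were higher were TNIP3 (0.84 ± 0.17), ZC3H12A (0.61 ± 0.13), TNFAIP2 (0.60 ± 0.08) and NFKBIE (0.39 ± 0.12). IL18 (1.64 ± 0.14), CXCL12 (1.37 ± 0.15) and CSF1 (0.66 ± 0.07) were higher and CCL28 (-1.77 ± 0.15) and CXCL14 (-1.14 ± 0.15) lower. VCAM1 (2.16 ± 0.19), IL1R1 (1.13 ± 0.12), CASP1 (0.92 ± 0.15), CEBPB (0.60 ± 0.09) and IKBKB (0.48 ± 0.07) were the highest of their lists, and DUSP1 (-1.56 ± 0.07), MAP3K14 (-0.73 ± 0.06), PTGS2 (-0.56 ± 0.14), JAK1 (-0.56 ± 0.08) and IL6ST (-0.38 ± 0.11) the lowest of theirs. Without the 3 libraries all 41 list genes called in BFTC909 hypoxia and 37 of the 40 called in METTL4-si were still called, IL6ST being among the 3 that were not. DUSP4, a MAP kinase phosphatase gene, fell in hypoxia in FADU (-2.54 ± 0.31) and BFTC909 (-3.52 ± 0.26) and was higher in METTL4-si in both (1.89 ± 0.31 and 2.61 ± 0.26).

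In the hypoxic METTL4 mutant cells, 6 of the 7 members with a row were at least 1.3-fold below the CRISPR control in both clones and none was above it, where 11.8% of the 15719 genes were lower in both clones and 8.94% higher. With 1 control library and 1 library per clone this was not tested, and both ratios share the control. CXCL8 was 60.6 in the control and 18.1 and 27.2 in clones 1 and 2 (log2 ratios of value + 1 of -1.69 and -1.13), and CXCL2 was 2.85 against 1.34 and 1.08. NFKBIA was 53.5 against 22.7 and 23.2 (-1.20 and -1.17) and TNFAIP3 34.9 against 23.2 and 14.3 (-0.57 and -1.23). IL1A was 32.5 against 12.5 and 13.7 (-1.31 and -1.19) and IL1B 24.7 against 13.6 and 15.3 (-0.81 and -0.66). CXCL1 was 11.8 against 8.46 and 12.5, lower in clone 1 only. CXCL3, CCL20 and IL6 had no row. The CXCL8 level of the control, 60.6, stood above the 16.6 and 22.3 of hypoxic Scr-si cells. These tables were normalised separately, and rows that name no gene held 42.8% of the control library against 0% of those Scr-si libraries. The levels are therefore not on 1 scale, and the control is 1 library.

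Other genes of the response were lower in the clones too: 7 of 15 further inhibitors and feedback genes, 7 of 11 other NF-kB targets, 4 of 8 genes of interleukin-6 signalling and 3 of 8 of interleukin-1 processing, with none higher in these 4 lists. PTGS2 stood at 2.06 in clone 1 and 2.58 in clone 2 against 26.1. NFKBIZ was 66.2 against 7.45 and 6.57, and ICAM1 24.8 against 8.43 and 7.40. CASP1 was 8.13 against 1.49 and 0.701 and SOCS3 28.0 against 8.37 and 8.80. Of 8 other chemokines and cytokines 2 were lower, LIF (14.2 against 7.15 and 7.05) and IL18 (30.8 against 17.3 and 15.7). Among the decay factors and phosphatases 4 of 10 were lower, with DUSP1 at 34.5 against 7.06 and 7.27, and 1 was higher, DUSP4, at 17.1 against 28.0 and 26.6. Of 8 subunit and IKK genes 1 was lower, NFKB2, and 2 were higher, CHUK (21.1 against 29.5 and 33.2) and MAP3K14. Of 22 receptors, antagonists and adaptors 7 were lower and 2 higher.

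**Figure D5:**
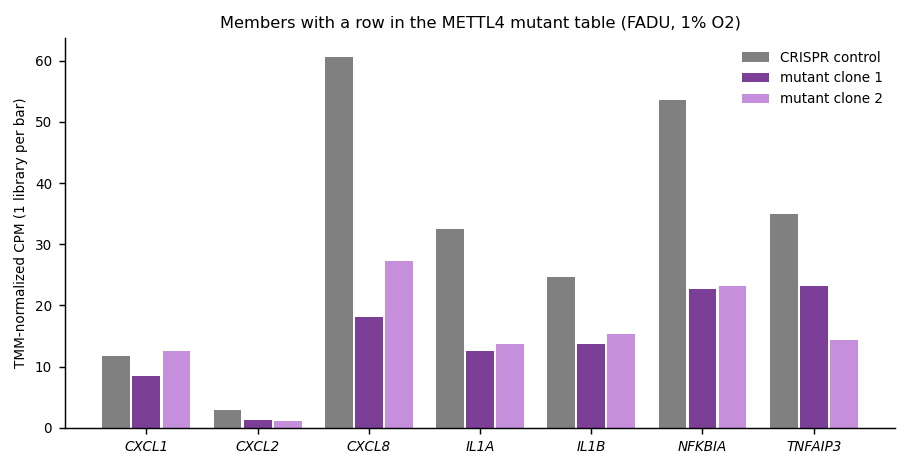
Normalised CPM (vertical axis from 0) of the 7 members with a row in hypoxic FADU cells, 1 library per bar: CRISPR control (grey) and METTL4 mutant clones 1 and 2 (purple). For 6 members both clones are below the control, CXCL8 from 60.6 to 18.1 and 27.2, and for CXCL1 clone 2 is not.

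The genes most like CXCL8 were sought by the Pearson correlation of log2(value + 1), centred on each table, over the 12 FADU libraries of the knockdown and overexpression tables. Of 10950 genes with a mean of at least 5, the closest were PHLDA1 (r = 0.979), the urokinase receptor gene PLAUR (0.973), TNFAIP3 (0.969), CMTR2 (0.967) and ZNF697 (0.956). Among the other members CXCL1 stood at r = 0.896, IL1A at 0.889, NFKBIA at 0.737 and IL1B at 0.438. For NFKBIA, over the 18 libraries of 3 tables and 9672 genes, the closest were NFKBIZ (0.920), TNFSF9 (0.871), HDAC5 (0.871), ACOT11 (0.862) and RUSC2 (0.859), and TNFAIP3 was at 0.529. Without the 3 libraries with markers of other cell types the 5 genes named for CXCL8 were at 0.958 to 0.984 over 10 libraries, and those for NFKBIA at 0.880 to 0.927 over 15. These correlations describe libraries that share groups and tables and carry no test.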

How the data were processed

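RNA was sequenced in 21 libraries after ribosomal depletion with a stranded kit, as 150-base pairs. Per the labels and the methods, the authors trimmed reads with Trim Galore, aligned them with HISAT2 to hg19, counted them per gene with htseq-count and normalised the counts by TMM in edgeR; versions, annotation and strand setting are not given in the sources used here. The deposited values are a TMM-scaled signal (CPM) per gene, in 4 tables normalised separately. For the replicated libraries, 100% of values gave whole reads (tolerance 0.1). In the mutant table rows that name no gene held 40.9 to 43.0% and were left out. A further 4 tables of the authors' comparisons (fold changes, F statistics, p-values) were not used. The columns of the RP11-390F4.3 libraries carry another name and were assigned by elimination.

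Values were tested on log2(value + 1) with limma 3.58.1 in R 4.3.3 (eBayes with trend), with the 3 groups of a table sharing 1 spread, for genes at 1 or more in at least 2 libraries. The p-values were adjusted over all tested genes by Benjamini-Hochberg, and calls also needed 1.3-fold. The fit was tested on simulated data. Fold changes on this scale understate those of low genes. Alternatives were another pseudocount, filter, centring or trend setting, edgeR 4.0.16 on whole reads, a replicate block and leaving out libraries. The members and gene lists were chosen with earlier results of these data known. All members are named. From the lists the genes with the largest called change in each direction in each comparison are named, with all called genes of the inhibitor and cytokine lists. DUSP4 and LIF are given in several comparisons but not in all, and RELA in 1. The genes named in the mutants besides members were chosen after their values were seen. Likeness to CXCL8 used the 12 FADU libraries because it has no row in BFTC909. Same-numbered libraries were not treated as pairs.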

Additional observations from a re-analysis of the deposited data

Results flagged for a closer look

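The change with hypoxia differed between FADU and BFTC909 for 5 members by the joint fit, as log2 differences of FADU minus BFTC909. These were 2.36 for CXCL1, 1.07 for CXCL2, 0.72 for IL6, -0.51 for NFKBIA and -0.90 for TNFAIP3. The change in METTL4-si differed for 3 members, by 0.60 for IL6, 0.92 for NFKBIA and 0.77 for TNFAIP3. IL6 passed the filter in FADU only through the METTL4-si libraries. Its difference was lost under 9 of 21 alternatives for hypoxia and under 11 of 21 for METTL4-si. The lines were cultured and normalised as separate tables, so line and table cannot be told apart.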

How the results depend on the processing

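Of 1132 values of 68 member results under alternatives, 1027 kept direction and side of the threshold, 73 fell below it, 23 passed it and 9 reversed, none of these 9 a called member. With 2 libraries a group, counts moved with single libraries: over the libraries left out one at a time, the called members ranged from 0 to 3 in FADU hypoxia, 1 to 8 in FADU METTL4-si, 0 to 3 in BFTC909 METTL4-si, 3 to 5 with METTL4 overexpression, 7 to 9 with RP11-390F4.3, 2 to 5 for the line difference in hypoxia and 2 to 3 for that in METTL4-si. Without the 3 libraries that carry other markers, 5 were called in FADU hypoxia and 3 in BFTC909 METTL4-si. In BFTC909 METTL4-si 1 was called with pseudocount 0.1, no filter, median-centred libraries or an unadjusted p. A mean of at least 5 left 6 members testable between RP11-390F4.3 and METTL4, of which 5 were called, and 3 for the line difference in hypoxia, all 3 called, as were 3 with pseudocount 0.1 or edgeR. In the BFTC909 METTL4-si comparison IL6 turned to -0.0387 median-centred, and over the libraries left out ranged from -0.0704 to 0.188, and TNFAIP3 from -0.147 to 0.0151, both turning without METTL4-si replicate 2. The line difference in METTL4-si turned for CXCL1 to 0.000718 median-centred, and over the libraries left out ranged from -0.339 to 0.215, positive at 0.0928 without FADU METTL4-si replicate 1 and at 0.215 without BFTC909 METTL4-si replicate 1. For CXCL2 it ranged from -0.0158, without FADU hypoxia replicate 1, to 0.557. The cause was not tested. The share of all genes called with libraries left out was not counted.

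With the replicate number as a block, 3 members were called in FADU hypoxia, 6 in FADU METTL4-si, 4 in BFTC909 hypoxia, 1 in BFTC909 METTL4-si, 4 with METTL4 overexpression, and 5 and 3 for the line differences. The numbers were not taken as pairs, since same-numbered libraries correlated at -0.065 to 0.154 in their deviations, apart from 0.648 between FADU normoxia and METTL4-si. The RP11-390F4.3 columns carry no number, and no block was fitted there.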
